A study of Mus musculus with 12 samples.

Results

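The comparison described here set hematopoietic stem cells of 3 Eµ-myc mice that lacked Casp1 and Casp11 (libraries CE1, CE2 and CE3, group CE) against those of 3 Eµ-myc mice with both caspases intact (E1, E2 and E3, group E). These 6 libraries are 6 of the 12 in the series, and the description covers the 13598 genes on autosomes among 14473 tested, out of 27179 listed. Both groups carried the Eµ-myc transgene, in which an immunoglobulin heavy chain enhancer drives Myc, and all mice were C57BL/6J. The other 6 libraries came from mice without the transgene, 3 with the same double knockout (group C) and 3 wild-type (group WT). Each library was total RNA of sorted cells of 1 mouse, labelled as stem cells and sequenced as bulk RNA. The labels used here give no age, sex, litter, sort gate or knockout allele.

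Casp1 and Casp11 encode the inflammatory caspases. Casp1 is activated in inflammasomes, where it matures interleukin-1β and interleukin-18 and cleaves gasdermin D to open membrane pores. Casp11, which the gene annotation lists as Casp4, binds bacterial lipopolysaccharide in the cytosol and cleaves the same gasdermin. Hematopoietic stem cells are rare, mostly quiescent cells of the bone marrow that maintain all blood lineages, and the Eµ enhancer is active chiefly in cells of the B lineage, where the transgene gives rise to lymphoma.

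The libraries held 24529611 to 31100277 counts each, and 17310 to 18863 genes had a count. Transcripts of the Y chromosome summed to 121.5 CPM in CE1 and 116.7 in CE2, where CPM are counts brought to a common effective library size. They summed to 0.33 CPM in CE3 and to 0.04 to 0.25 CPM in E1, E2 and E3. The sex-linked difference and the caspase label therefore overlap in CE1 and CE2, and CE3 is the only knockout library that matches the E libraries in this respect. Over the autosomal genes, the first principal component of the 6 libraries held 41.4% of the variance and placed CE1, CE2 and CE3 at -15.2, -19.4 and -14.3, apart from E1, E2 and E3 at 28.2, 15.1 and 5.53. Kit, the stem cell factor receptor, stood at 415 to 508 CPM in the 6 libraries, and Cd34 at 958 to 1157, and both are shared between stem cells and progenitors. Genes more restricted to stem cells were detected in every library, with Slamf1 at 3.42 to 5.05 CPM, Fgd5 at 7.75 to 13.9 and Procr at 10.3 to 18.4. Flt3, the receptor that marks multipotent progenitors, stood at 376 to 516 CPM, above Slamf1, Fgd5 and Procr in every library. Progenitor transcripts were thus plentiful, the share of stem cells in the sort was not tested, and the name stem cells follows the labels.

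The targeted genes were examined first. Casp1 (gene 12362, chromosome 9, 5298517 to 5307281, mm10) stood at 5.88, 6.76 and 5.72 CPM in CE1, CE2 and CE3, and at 43.4, 37.8 and 45.1 CPM in E1, E2 and E3. Every knockout library was far below every E library, and none was at 0. Casp1 was 6.87-fold lower in CE (log2 -2.78, SE 0.16, adjusted p = 1.55e-07, edgeR's quasi-likelihood test with Benjamini-Hochberg adjustment). Casp4 (gene 12363, chromosome 9, 5308849 to 5336791) stood at 9.79, 13.7 and 9.0 CPM in CE and at 12.5, 14.4 and 17.2 CPM in E. These ranges overlapped, and the difference did not pass (log2 -0.44, SE 0.18, edgeR adjusted p = 0.17). The counts are per gene, so they do not show which part of either transcript the reads cover. The Casp4 level therefore does not check the knockout label. Myc, which both groups carry as a transgene, was at 346.7, 344.6 and 409.5 CPM in CE and 424.5, 448.5 and 427.8 CPM in E. That difference did not pass either (log2 -0.24, SE 0.10, edgeR adjusted p = 0.157), and counts of the transgene and the native gene were not separated.

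Of the 13598 autosomal genes, 245 (1.8%) passed at an adjusted p under 0.05, with 65 (0.478%) higher and 180 (1.32%) lower in the caspase knockout. The changes were mostly small. Only 14 of the higher and 22 of the lower genes differed by 2-fold or more, whereas 23 and 99 differed by under 1.5-fold, and the median size on the log2 scale was 0.68 for the higher and 0.57 for the lower genes. All 245 had groups that did not overlap, as did 30.1% of all autosomal genes tested. Most calls lay close to the threshold: 237 of the 245 had an adjusted p between 0.03 and 0.05, and 4 (Casp1, Camk2b, Plcd3 and Wdfy1) had one under 0.01. The count depended on which libraries were fitted and on the tool. It fell to between 3 and 22 when any one of the 6 libraries was left out. Casp1, Camk2b and Plcd3 were the 3 genes that passed in all 6 of those fits. In the same fits 2167 to 2831 genes had an unadjusted edgeR p under 0.05, against 3079 with all libraries. The count rose to 911 when the 6 libraries were fitted without C and WT, to 1117 with DESeq2 and to 1364 with limma voom. With a covariate for Y-linked transcripts, which leaves CE3 to carry the comparison with E, 3 genes passed, and Casp1 and Camk2b were the 2 of them that were also among the 245.

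**Figure D1:**
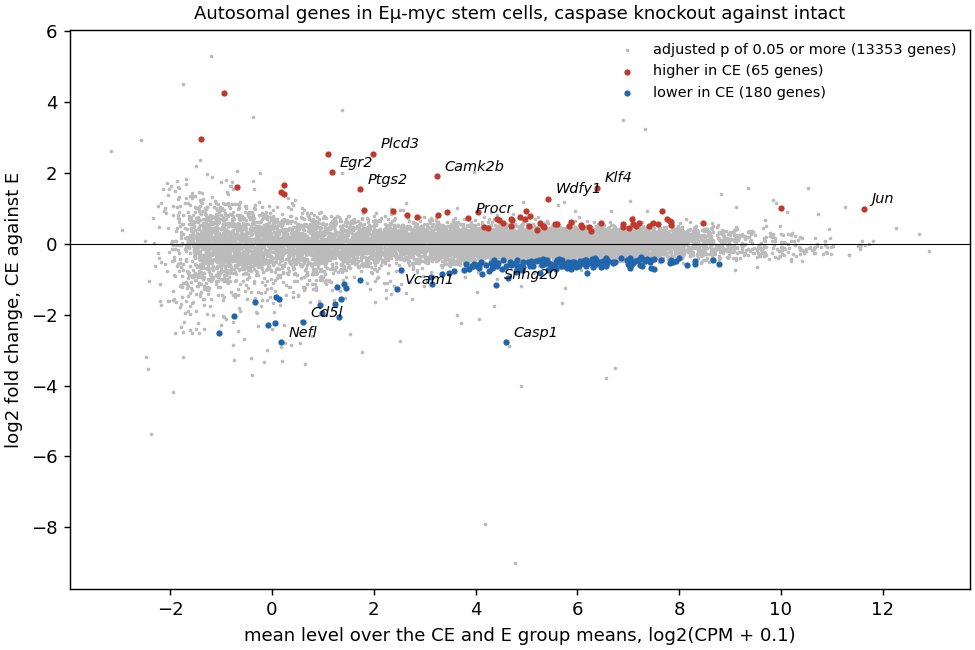
Log2 fold change of each autosomal gene in CE against E (vertical axis) against its mean level over both groups, as log2 of CPM plus an offset for display (horizontal axis). Red points mark the 65 increases that passed, blue points the 180 decreases that passed, and grey points the genes that did not pass. Casp1, Camk2b and Plcd3 stand clear of the cloud, and most other passing genes lie near it.

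Camk2b and Plcd3 were the most stable increases. Camk2b (gene 12323, chromosome 11, 5969629 to 6066357) encodes a subunit of calcium/calmodulin-dependent kinase II. It stood at 16.6, 13.5 and 14.2 CPM in CE1, CE2 and CE3 and at 2.42, 3.80 and 5.53 CPM in E1, E2 and E3. The lowest knockout library was more than any E library, and Camk2b was 3.76-fold higher in CE (log2 1.91, SE 0.22, edgeR adjusted p = 0.00125). Plcd3 (gene 72469, chromosome 11, 103070296 to 103101710) encodes a phospholipase C that cleaves phosphatidylinositol bisphosphate. It stood at 6.71, 7.88 and 5.19 CPM in CE and at 1.67, 0.63 and 1.15 CPM in E. It was 5.83-fold higher (log2 2.54, SE 0.34, edgeR adjusted p = 0.00572), with no overlap between the groups, and with the Y-linked covariate the log2 difference was 2.20 with an adjusted p of 0.113. Wdfy1 (gene 69368, chromosome 1, 79702262 to 79776143), which encodes a FYVE-domain protein of early endosomes, stood at 69.5, 70.2 and 43.1 CPM in CE and at 22.5, 26.0 and 26.8 CPM in E. It was 2.43-fold higher (log2 1.28, SE 0.18, edgeR adjusted p = 0.00978). CE3 lay between the other knockout libraries and the E libraries, and with the Y-linked covariate the log2 difference was 0.78 (adjusted p = 0.113).

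The largest increase among genes of moderate level after Plcd3 was in Egr2, a zinc finger transcription factor, which was at 3.74, 4.45 and 2.27 CPM in CE and 1.5, 0.73 and 0.36 CPM in E (4.07-fold, log2 2.03, SE 0.46, edgeR adjusted p = 0.0429). Klf4, a Krüppel-like factor that restrains cell division in several tissues, was at 143.4, 141.1 and 94.3 CPM in CE and 50.7, 41.2 and 34.0 CPM in E (3.01-fold, edgeR adjusted p = 0.0359). Ptgs2, the inducible cyclooxygenase of prostaglandin synthesis, was at 5.78, 4.96 and 3.75 CPM in CE and 1.83, 1.42 and 1.70 CPM in E (2.93-fold, edgeR adjusted p = 0.0257). CE3 was the lowest knockout library for all 3 of these genes, and no E library reached it. Hpgd, the enzyme that inactivates prostaglandins, moved the other way: it was at 1.35, 1.02 and 1.41 CPM in CE and 3.04, 4.46 and 3.52 CPM in E (log2 -1.54, SE 0.28, edgeR adjusted p = 0.0359). Rhob, a small GTPase of endosomes, rose from 680.1 ± 71.2 to 1370 ± 97.6 CPM (SD, n = 3 each, log2 1.01). Trib3, a pseudokinase induced by amino acid and endoplasmic reticulum stress, rose by 0.96 on the log2 scale. Ccdc85c and Eya2, the latter a transcriptional coactivator with phosphatase activity, each rose by 0.93.

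**Figure D2:**
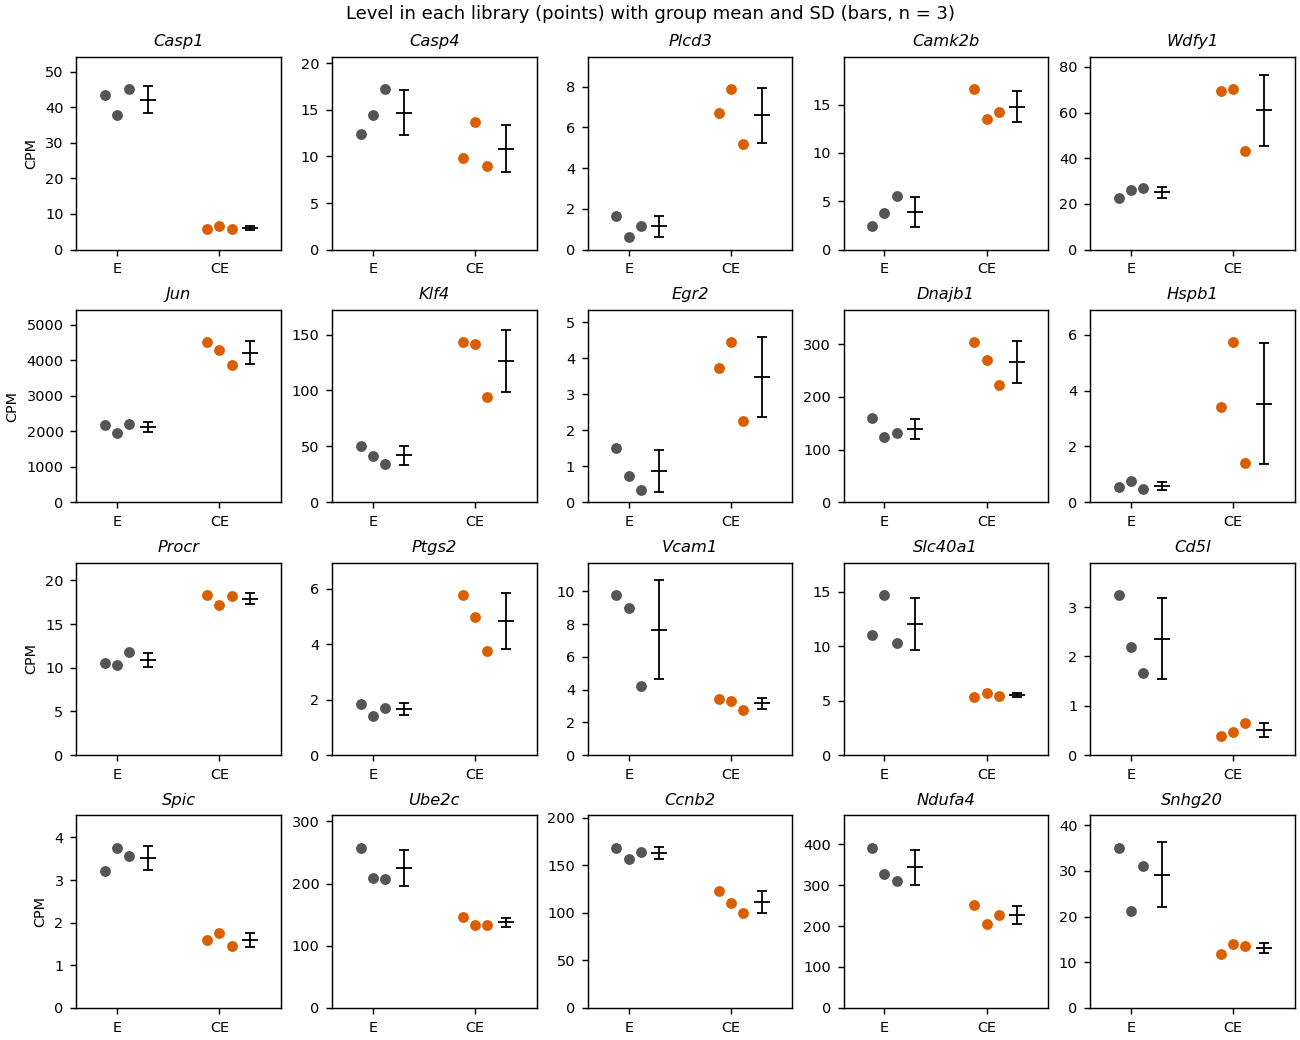
Level of 20 named genes in each library, in CPM on a linear axis from 0, with E1, E2 and E3 in grey and CE1, CE2 and CE3 in orange from left to right. Black bars give the mean and SD of the 3 libraries of a group. Casp4 is the 1 gene among those drawn whose groups overlap.

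Immediate early and heat shock genes were the list with the highest median. Immediate early genes such as Fos, Jun and Egr1 are transcribed soon after a cell is stimulated, without new protein synthesis, and heat shock genes encode chaperones induced by unfolded protein. Of 31 tested members, 6 rose (Klf4, Dnajb1, Ier5, Jun, Egr2 and Hspb1) and none fell, and 29 had a positive log2 fold change. The median log2 fold change was 1.0, against 0.01 over all autosomal genes tested, of which 0.478% rose. Their summed level was 26120, 23360 and 21900 CPM in CE1, CE2 and CE3 and 13790, 10810 and 12130 CPM in E1, E2 and E3, so every knockout library was above every E library. Over the 18 alternative settings the median stayed between 0.87 and 1.08, and it was lowest with the Y-linked covariate. The calls were less stable than the median. Of the 6 risen members, Klf4, Dnajb1 and Hspb1 passed without CE3. None of the 6 passed when CE1, CE2, E1, E2 or E3 was left out. Once trends on transcript length and GC content had been removed, 2 members passed.

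Values within the list differed between early transcription factors, inducible chaperones and constitutive chaperones. Jun, a subunit of the AP-1 transcription factor, was at 4521, 4281 and 3866 CPM in CE and 2175, 1956 and 2216 CPM in E (log2 1.0, SE 0.21, edgeR adjusted p = 0.0359). Dnajb1, a co-chaperone of HSP70, was at 304.3, 270.7 and 223.4 CPM in CE and 160.4, 124.7 and 131.0 CPM in E (log2 0.94, SE 0.16, edgeR adjusted p = 0.0359). Ier5, an early response gene that acts on the heat shock factor, was at 284.1, 267.4 and 263.0 CPM in CE and 177.3, 135.2 and 183.8 CPM in E (log2 0.72, SE 0.13, edgeR adjusted p = 0.0359). For these 3 genes the lowest knockout library was above the highest E library. Hspb1, a small heat shock protein, was at 3.42, 5.74 and 1.41 CPM in CE and at 0.47 to 0.76 CPM in E (log2 2.55, SE 0.54, edgeR adjusted p = 0.0359). Hspa1a, the inducible HSP70, was at 238.3, 343.2 and 75.9 CPM in CE and 22.9, 23.7 and 11.0 CPM in E but did not pass (log2 3.51, SE 0.74, edgeR adjusted p = 0.0554). Its near-identical neighbour Hspa1b had 315.1, 464.5 and 91.0 CPM in CE and 31.9, 38.9 and 21.5 CPM in E (edgeR adjusted p = 0.0669), and reads of the pair may be shared between them. Fos, Fosb, Egr1, Junb, Klf6 and Dusp1 did not pass, with log2 fold changes of 1.06, 1.59, 1.58, 1.03, 1.40 and 1.15 and edgeR adjusted p-values between 0.052 and 0.0629. Their groups did not overlap, but 15.1% of all autosomal genes tested also had every CE library above every E library. The constitutive chaperones did not follow: Hspa8 had a log2 fold change of 0.20, Hsp90aa1 of 0.15, and the mitochondrial pair Hspd1 and Hspe1 of -0.31 and -0.32, none of which passed.

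Promoters of 3 of the 6 risen members are printed because these members moved together and their sequences show different motif content. Each run is the 250 bases upstream of the RefSeq start in build GRCm38.p6, read 5′ to 3′ on the strand of the gene. They lie at chr5:135887669-135887918 (plus strand) for Hspb1, chr4:95052223-95052472 (minus strand) for Jun and chr4:55532476-55532725 (minus strand) for Klf4. Capitals mark matches to the paired heat shock unit, GAANNTTC or TTCNNGAA, and to the AP-1 and CRE-like octamer TGACATCA, on either strand.
Hspb1: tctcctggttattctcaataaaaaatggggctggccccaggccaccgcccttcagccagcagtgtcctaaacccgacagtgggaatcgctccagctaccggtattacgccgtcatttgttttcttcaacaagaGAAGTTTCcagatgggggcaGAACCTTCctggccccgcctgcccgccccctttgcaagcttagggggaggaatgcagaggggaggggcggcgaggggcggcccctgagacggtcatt
Jun: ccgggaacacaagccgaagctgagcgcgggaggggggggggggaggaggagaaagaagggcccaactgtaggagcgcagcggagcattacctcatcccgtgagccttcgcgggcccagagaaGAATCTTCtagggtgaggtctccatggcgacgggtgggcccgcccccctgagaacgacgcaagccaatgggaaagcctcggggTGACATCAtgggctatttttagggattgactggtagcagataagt
Klf4: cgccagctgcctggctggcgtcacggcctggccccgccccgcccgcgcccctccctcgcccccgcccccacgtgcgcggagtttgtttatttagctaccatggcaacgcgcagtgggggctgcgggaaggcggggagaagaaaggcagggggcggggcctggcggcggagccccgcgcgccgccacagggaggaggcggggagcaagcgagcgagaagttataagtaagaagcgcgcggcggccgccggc
Hspb1 held 2 heat shock unit matches, Jun held 1 and also 1 match to the octamer, and Klf4 held neither. Of all 32851 promoter windows of the same length, 12.8% held a heat shock unit match and 2.93% held the octamer. Neither motif was found in the windows of Dnajb1 or Ier5, and 1 of 5 windows of Egr2 held a heat shock unit match. These matches are descriptions of the sequence and do not show that a factor binds there.

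Genes of mitosis stood lower in the caspase knockout. The G2/M list holds cyclins, kinesins and kinetochore genes that peak as cells prepare to divide. Of its 35 tested members, 8 fell (Ube2c, Spc25, Ccnb2, Ccnb1, Birc5, Cdk1, Nusap1 and Cenpa), none rose, and 34 had a negative log2 fold change, with a median of -0.33. Over all autosomal genes tested, 1.32% fell and 0.478% rose. The median was -0.21 without CE3 and -0.64 with the Y-linked covariate, and no member passed in either fit. With length and GC trends removed it was -0.27, and Spc25 and Nusap1 were the 2 members that passed. Ube2c, the ubiquitin-conjugating enzyme that works with the anaphase-promoting complex, was at 146.1, 133.8 and 133.5 CPM in CE and 257.8, 208.8 and 206.5 CPM in E (log2 -0.70, SE 0.13, edgeR adjusted p = 0.0359). Ccnb2, a cyclin B, was at 123.1, 110.9 and 99.7 CPM in CE and 168.8, 156.9 and 163.8 CPM in E (log2 -0.55, SE 0.11, edgeR adjusted p = 0.0359). Spc25, a part of the kinetochore's NDC80 complex, was at 28.8, 29.7 and 24.9 CPM in CE and 50.2, 45.9 and 50.6 CPM in E (log2 -0.81, SE 0.15, edgeR adjusted p = 0.0359). All 3 groups of values were separate, with CE3 the lowest knockout library in each. Other proliferation genes of the list overlapped between groups: Mki67 was at 261.0, 296.8 and 142.4 CPM in CE and 194.7, 379.4 and 247.3 CPM in E, and Top2a and Cdc20 had log2 fold changes of -0.17 and 0.01. The S phase list had no member past the threshold among 41 tested, and its median was -0.04. Of its members, Mcm2, a subunit of the replicative helicase, had a log2 fold change of 0.43 and Slbp, which binds histone messenger RNA, of -0.37, with edgeR adjusted p-values of 0.0889 and 0.0811.

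Nuclear genes of oxidative phosphorylation were also lower. Of 72 tested members, 6 fell (Uqcrb, Ndufa4, Ndufs4, Ndufb3, Atp5pb and Atp5j), none rose, and 65 had a negative log2 fold change, with a median of -0.25. The share of all autosomal genes tested that fell was 1.32%. Uqcrb, a subunit of complex III, was at 48.9, 44.5 and 41.4 CPM in CE and 84.7, 65.6 and 68.6 CPM in E (log2 -0.70, SE 0.13, edgeR adjusted p = 0.0359). Ndufs4, a subunit of complex I, was at 50.2, 47.6 and 48.9 CPM in CE and 78.3, 63.3 and 67.4 CPM in E (log2 -0.51, SE 0.11, edgeR adjusted p = 0.0359). In both genes E1 was the highest of the 6 libraries. The summed level of the list overlapped between groups, at 11200 to 12810 CPM in CE and 12680 to 15160 CPM in E. Its members are short, with a median transcript length of 1232 bases, and the median log2 fold change was -0.07 with no member passing once trends on length and GC content had been removed. Glycolysis genes had no member past the threshold among 25, with a median of 0.18. Their largest value by p was in the glucose transporter Slc2a3, at 103.4, 100.8 and 100.7 CPM in CE and 71.8, 67.4 and 72.5 CPM in E (log2 0.53, edgeR adjusted p = 0.0599).

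The direction of change followed transcript length and base composition. The median transcript length was 5248 bases for the genes that rose, 2133 bases for those that fell and 3353 bases for all autosomal genes with a length. The median GC content was 57.4%, 44.2% and 50.1% in the same order. Genes were divided into 10 bins of transcript length. In the shortest bin (62 to 1383 bases) 1 gene rose and 41 fell, with a median log2 fold change of -0.17 over the 1281 genes. In the longest bin (at least 6727 bases) 22 rose and 3 fell, with a median of 0.13. Kmt2d, Plec and Pkd1 are examples of risen genes with long transcripts, with log2 fold changes of 0.64, 0.62 and 0.71. Spc25, above, and Txn1, the cytosolic thioredoxin, are fallen genes with short ones, at -0.81 and -0.56. Each gene's log2 level was set against its mean over the 12 libraries, and the median of GC-rich genes minus that of GC-poor genes was -0.02, -0.02 and 0.41 in CE1, CE2 and CE3 and -0.09, -0.27 and -0.21 in E1, E2 and E3, so GC content separated the groups. The same measure for long minus short transcripts was 0.12, 0.30 and -0.05 in CE and -0.26, 0.10 and 0.00 in E, where the groups overlapped. With both trends removed in each library, 38 genes passed (10 higher, 28 lower), and 32 of them were among the 245. The 1248 tested genes without a length had no trend removed. Casp1, Camk2b, Plcd3, Wdfy1 and Procr passed in that fit, whereas Klf4, Jun, Ube2c and Ndufa4 did not (adjusted p = 0.0567, 0.0776, 0.0567 and 0.425). Klf4, Jun and Ube2c had log2 fold changes of 1.48, 0.84 and -0.79 in that fit, against 1.59, 1.0 and -0.70 without it. Ndufa4 went from -0.60 to -0.15. The part of library composition in the difference was not tested beyond this fit.

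**Figure D3:**
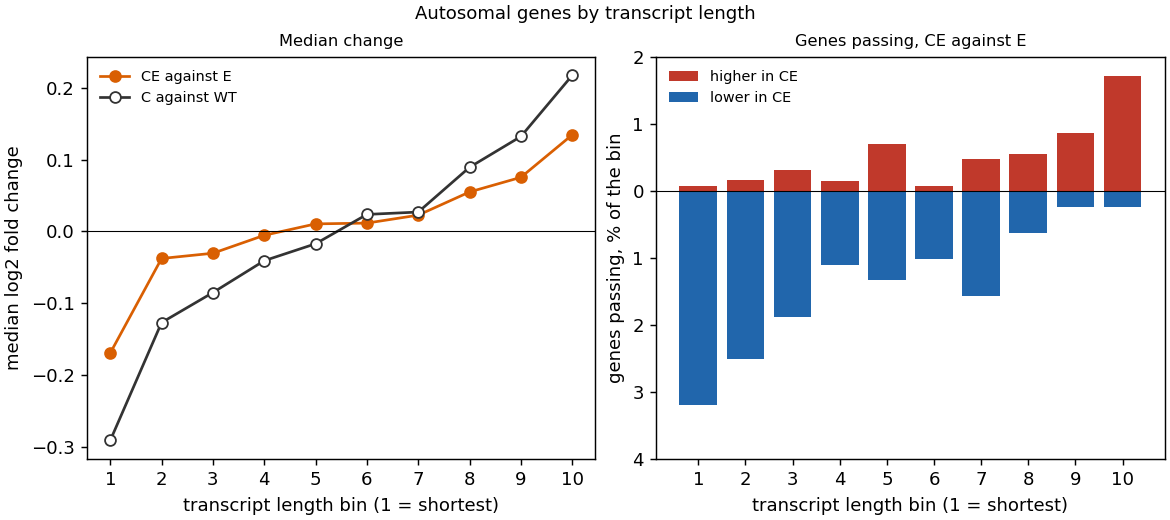
Autosomal genes in 10 bins of transcript length from shortest to longest. The left panel plots the median log2 fold change of each bin in CE against E (orange) and in C against WT (open), and the right panel the percentage of the bin that passed in CE against E as higher (red, upward) or lower (blue, downward). In CE against E the median runs from -0.17 in the shortest bin to 0.13 in the longest.

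Several of the largest decreases were in genes of tissue macrophages. Of the 29 tested markers of monocytes, macrophages and dendritic cells, 4 fell (Cd5l, Slc40a1, Vcam1 and Spic) and 1 rose (Klf4). Among all autosomal genes tested, 1.32% fell and 0.478% rose. Log2 fold changes were negative for 19 and positive for 10, with a median of -0.48, or -0.25 with none passing once the Y-linked covariate was included. Cd5l, a secreted scavenger protein of macrophages, was at 0.38, 0.48 and 0.66 CPM in CE and 3.25, 2.18 and 1.66 CPM in E (log2 -2.21, SE 0.34, edgeR adjusted p = 0.0162). Slc40a1, the iron exporter ferroportin, was at 5.36, 5.71 and 5.42 CPM in CE and 11.0, 14.7 and 10.3 CPM in E (log2 -1.13, SE 0.21, edgeR adjusted p = 0.0359). Vcam1, an adhesion molecule of macrophages and stroma, was at 3.42, 3.30 and 2.76 CPM in CE and 9.80, 8.98 and 4.23 CPM in E (log2 -1.28, SE 0.27, edgeR adjusted p = 0.0359). The groups were separate in each case, and E3 was the lowest E library of the 3. Spic, the transcription factor of red pulp and bone marrow iron-recycling macrophages, fell by 1.13 on the log2 scale. Outside the list, Nr1h3, the sterol receptor LXRα, fell by 1.23, and Aif1, a macrophage cytoskeletal protein, by 1.02. Siglec1 and Stab2, macrophage and sinusoidal genes named after their values were seen, fell by 2.30 and 1.71 from E levels of 0.91 to 3.29 CPM. Markers shared with myeloid progenitors did not pass: Csf1r had a log2 fold change of 0.18 and Lyz2 of -0.04. The summed level of the list overlapped, at 1784 to 2140 CPM in CE and 1696 to 2186 CPM in E. In bulk RNA, fewer cells of a type and less of its RNA per cell cannot be told apart.

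Markers of erythroid and B cells varied widely among the E libraries. None of 25 erythroid markers passed, although 22 had a negative log2 fold change and the median was -0.55, which became -0.07 without E2. Car1, the erythroid carbonic anhydrase, was at 70.8, 122.1 and 36.1 CPM in E1, E2 and E3 and 45.5, 28.6 and 22.9 CPM in CE1, CE2 and CE3. Of 27 B lineage markers, 1 fell (Fcrla, log2 -1.95, edgeR adjusted p = 0.0471) and none rose, with a median of -0.14. The share that fell over all autosomal genes tested was 1.32%. Igkc, the immunoglobulin kappa constant region, was at 252.9, 310.8 and 22.7 CPM in E1, E2 and E3 and at 5.95 to 36.7 CPM in CE, and Jchain, of antibody-secreting cells, at 76.7, 85.3 and 6.48 CPM in E and 1.70 to 4.73 CPM in CE. E1 and E2 thus stood high for both, E3 did not, and neither gene passed (edgeR adjusted p = 0.127 and 0.0869). The summed B lineage level was 1162, 1840 and 793.2 CPM in E1, E2 and E3 and 699.3 to 928.7 CPM in CE. No marker passed among 25 of T and NK cells, 27 of megakaryocytes, 21 of neutrophils, 21 of basophils, eosinophils and mast cells, or 16 of endothelium and stroma. Their medians were -0.03, -0.05, 0.09, -0.22 and -0.21. Without CE3 the neutrophil median turned to -0.21 and that of basophils, eosinophils and mast cells became -0.82. The T and NK median was 0.19 without E1, and the megakaryocyte median was 0.15 without E2. The part of RNA from other lineages in the results was not tested.

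Among 41 stem cell identity genes, 1 rose and none fell, with a median log2 fold change of 0.15 and 31 positive values. Over all autosomal genes tested, 0.478% rose and 1.32% fell. The gene that rose was Procr, the endothelial protein C receptor used to sort stem cells. It was at 18.4, 17.2 and 18.2 CPM in CE and 10.5, 10.3 and 11.8 CPM in E (log2 0.72, SE 0.17, edgeR adjusted p = 0.0431), so the groups were separate and tight. Fgd5 encodes a guanine nucleotide exchange factor restricted to stem cells among blood-forming cells. It was at 13.9, 13.2 and 12.2 CPM in CE and 7.75, 9.01 and 8.66 CPM in E without passing (log2 0.63, edgeR adjusted p = 0.07). Mecom, Hlf and Slamf1, other genes of long-term stem cells, had log2 fold changes of 0.25, 0.13 and 0.15, with SE of 0.15, 0.12 and 0.18. Of 28 quiescence and cycling regulators, Klf4 rose and Cdkn2c, the cyclin-dependent kinase inhibitor p18, fell from 25.6 ± 0.85 to 17.5 ± 0.92 CPM (SD, n = 3 each, log2 -0.55, edgeR adjusted p = 0.0359). None of 22 genes of multipotent progenitors and lymphoid priming passed, and their median was -0.03. Flt3 had a log2 fold change of 0.10. Notch1, a receptor of lymphoid commitment, and Rag1, of antigen receptor recombination, had log2 fold changes of 0.59 and 0.99 without passing (edgeR adjusted p = 0.0648 and 0.115).

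Within the pathway of the deleted caspases, the listed genes other than Casp1 did not pass. Of 27 inflammasome and pyroptosis genes tested, Casp1 fell and no other member passed, and the median log2 fold change was 0.00. Gsdmd, the pore-forming substrate, was at 84.1, 87.3 and 107.3 CPM in CE and 98.1, 85.2 and 100.1 CPM in E. Pycard, the adaptor of the inflammasome, was at 103.0, 85.9 and 118.3 CPM in CE and 133.4, 105.7 and 112.4 CPM in E. Nlrp3, a sensor, was at 2.08, 1.70 and 6.90 CPM in CE and 10.5, 9.46 and 3.52 CPM in E. The groups overlapped for all 3 genes. The cytokine substrates stayed low, with Il1b at 0.58 to 1.0 CPM in CE and 0.75 to 1.29 CPM in E and Il18 at 5.64 to 8.44 CPM in CE and 6.23 to 10.4 CPM in E. Casp12, the next caspase gene along chromosome 9, was at 6.57, 6.69 and 5.49 CPM in CE and 8.34, 7.62 and 10.5 CPM in E (log2 -0.50, edgeR adjusted p = 0.132). None of 18 genes of IL-1 and IL-18 signalling, 28 apoptotic caspase and BCL2 family genes or 15 necroptosis and death receptor genes passed, with medians of 0.06, -0.01 and 0.11. Sigirr, an inhibitory receptor of the IL-1 family, and Mlkl, the effector of necroptosis, had log2 fold changes of 0.26 and -0.27 without passing. The nearest to the threshold was Cycs, cytochrome c, with a log2 fold change of -0.60 and an edgeR adjusted p of 0.05002. Casp8, the initiator of death receptor signalling, was at 106.3, 101.8 and 91.9 CPM in CE and 125.6, 121.3 and 134.0 CPM in E (log2 -0.34, edgeR adjusted p = 0.0635).

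Few genes of the inflammatory and stress lists passed beyond the immediate early genes. The counts below stand beside 0.478% risen and 1.32% fallen over all autosomal genes tested. Of 30 NF-κB and TNF response genes, Ptgs2 rose, none fell and 23 had positive values, with a median log2 fold change of 0.29. In 12 of the 30 every CE library was above every E library, against 15.1% of all autosomal genes tested, and in none was every CE library below. The median was 0.17 with length and GC trends removed. Nfkbiz, an inducible nuclear IκB protein, was at 85.8, 73.5 and 63.3 CPM in CE and 30.9, 24.5 and 43.1 CPM in E without passing (log2 1.18, edgeR adjusted p = 0.0692). None of 43 type I interferon-stimulated genes passed, with a median of -0.01. Oas2, an antiviral oligoadenylate synthetase, had a log2 fold change of 0.29 and Ifi27l2a of -0.50. Of 37 interferon-gamma GTPase and antigen presentation genes, Gbp8, a guanylate-binding protein, fell from 4.50, 5.73 and 1.38 CPM in E1, E2 and E3 to 0.86, 0.68 and 1.22 CPM in CE1, CE2 and CE3 (log2 -2.07, SE 0.43, edgeR adjusted p = 0.0359), and E3 lay close to CE3. Of 34 unfolded protein and integrated stress response genes, Trib3 rose and none fell, and none of 28 p53 targets passed. The p53 targets Bbc3, a proapoptotic BH3-only gene, and Perp, a desmosomal protein, had log2 fold changes of 0.49 and -0.65 without passing.

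Growth and metabolic lists likewise held few called genes, where 0.478% of all autosomal genes tested rose and 1.32% fell. None of 53 ribosome biogenesis genes passed, with a median log2 fold change of -0.12. Npm1, the nucleolar chaperone, was at 650.3, 612.3 and 445.8 CPM in CE and 963.3, 900.8 and 840.3 CPM in E without passing (log2 -0.66, edgeR adjusted p = 0.0593). None of 23 genes of the MYC, MAX and MXD network passed, with a median of 0.07. Trrap, a scaffold of histone acetyltransferase complexes that MYC recruits, had a log2 fold change of 0.32 without passing (edgeR adjusted p = 0.0905), and of -0.07 with length and GC trends removed. Of 28 cholesterol and fatty acid synthesis genes, Msmo1, an enzyme of sterol demethylation, fell by 0.67 on the log2 scale and none rose. Of 26 adhesion and niche receptors, Vcam1 fell and none rose, and Cxcr4, the receptor for the niche chemokine CXCL12, had a log2 fold change of -0.16.

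**Figure D4:**
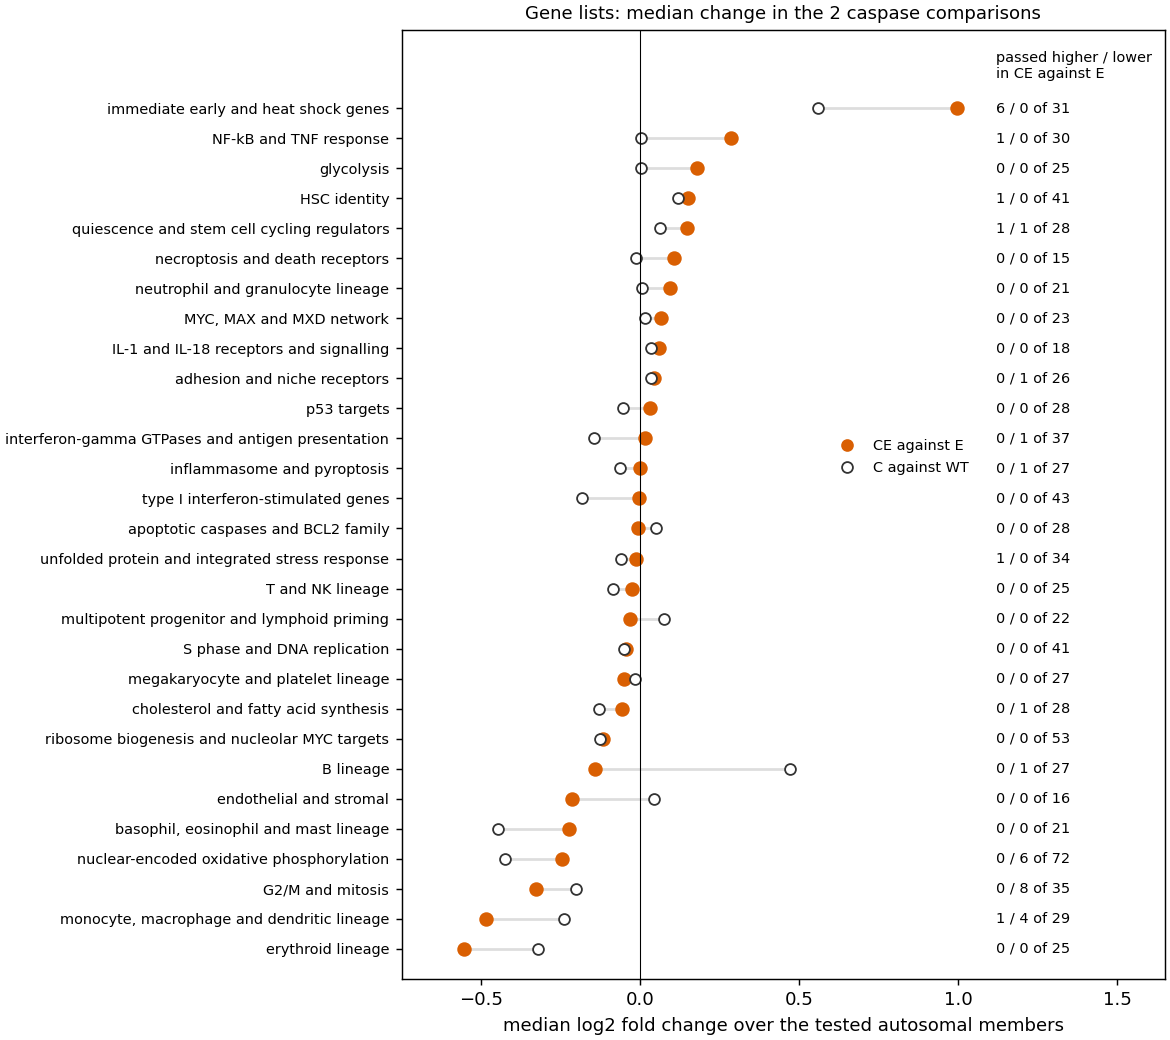
Median log2 fold change of the tested autosomal members of 29 gene lists in CE against E (orange) and in C against WT (open), ordered by the former, with the number of members that passed as higher and as lower in CE against E on the right. The immediate early and heat shock list has the highest median at 1.0, and the erythroid list, in which no gene passed, the lowest at -0.55.

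The remaining decreases of at least moderate level included Snhg20, a small nucleolar RNA host gene, at 11.8, 13.9 and 13.6 CPM in CE and 35.1, 21.2 and 31.0 CPM in E (log2 -1.15, SE 0.22, edgeR adjusted p = 0.0359). Bpifc, of the lipid-binding BPI family, was at 13.4, 14.7 and 23.0 CPM in CE and 33.1, 38.2 and 27.4 CPM in E (log2 -0.95, edgeR adjusted p = 0.0359). Rbis, a ribosome biogenesis factor, and Mnd1, a meiotic recombination protein, each fell by 0.85. Nefl, the light neurofilament, lay below the level cut of the naming rule and was named after its values were seen, at 0.14 to 0.34 CPM in CE and 1.36 to 2.63 CPM in E (log2 -2.77, edgeR adjusted p = 0.0257).

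The called genes were spread over the genome. The share of tested genes that passed ranged from 0.617% on chromosome 19 to 3.0% on chromosome 15, and every autosome held at least 3. On chromosome 13 all 15 called genes were lower, and on chromosome 18 all 9. Near the deleted locus, none of the other 38 tested genes within 10 Mb of Casp1 passed by edgeR, and 8 of them had an unadjusted p under 0.05, a share of the same order as the 22.6% of all autosomal genes. Their median log2 fold change was -0.11.

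The same caspase deletion without the transgene, C against WT, shares no library with CE against E. In it 246 autosomal genes (1.81%) passed, 129 (0.949%) higher and 117 (0.86%) lower, or 140 and 82 with DESeq2's size factors in place of TMM. Of the 245 genes called in CE against E, 242 (98.8%) had the same direction in C against WT, where 75% of all autosomal genes did. The 2 lists shared 72 genes, all changed in the same direction, which are 29.4% of the first list and 29.3% of the second. Casp1, Camk2b, Plcd3 and Wdfy1 had nearly equal log2 fold changes, -2.73, 1.95, 2.60 and 1.27 in C against WT. Meg3, a maternally expressed noncoding RNA, and Pkd1l1, a polycystin family gene, were outside the naming rule and passed in both, with log2 fold changes of 1.66 and 4.27 in CE against E and 2.36 and 4.70 in C against WT. The C libraries all held Y-linked transcripts, at 92.1 to 101.2 CPM, and the WT libraries 0.04 to 0.22 CPM, so in C against WT sex-linked and caspase differences cannot be told apart. The trend with transcript length also ran the same way, from a median of -0.29 in the shortest bin to 0.22 in the longest. The measure for long minus short transcripts was 0.05 to 0.23 in C and -0.35 to -0.01 in WT. With length and GC trends removed, 21 genes passed in C against WT. The part of this trend in the agreement between the comparisons was not tested.

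No gene passed the test of the difference between the 2 caspase effects (0 by edgeR's quasi-likelihood test, 0 by DESeq2 and 0 by limma voom), and 287 autosomal genes (2.11%) had an unadjusted p under 0.05. Some tissue macrophage genes had unlike values: Vcam1 had a log2 fold change of -1.28 in CE against E and -0.24 in C against WT, and Cd5l of -2.21 and -0.72. Others fell in both, with Aif1 at -1.02 and -1.01, Slc40a1 at -1.13 and -0.54 and Spic at -1.13 and -0.55. Stab2, Siglec1 and Fgf1 were the 3 called genes with opposite signs, and Fgf1 is not among the macrophage genes named above. Ptgs2 had values of 1.55 and 0.40, and Procr of 0.72 and 0.28. The immediate early and heat shock list had medians of 1.0 and 0.56, with 6 and 4 members higher. In WT its summed level ran from 11250 to 23840 CPM. The highest WT library was below the 24220 to 25110 CPM of C but above CE2 and CE3, at 23360 and 21900 CPM. None of these differences between the comparisons passed the test.

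**Figure D5:**
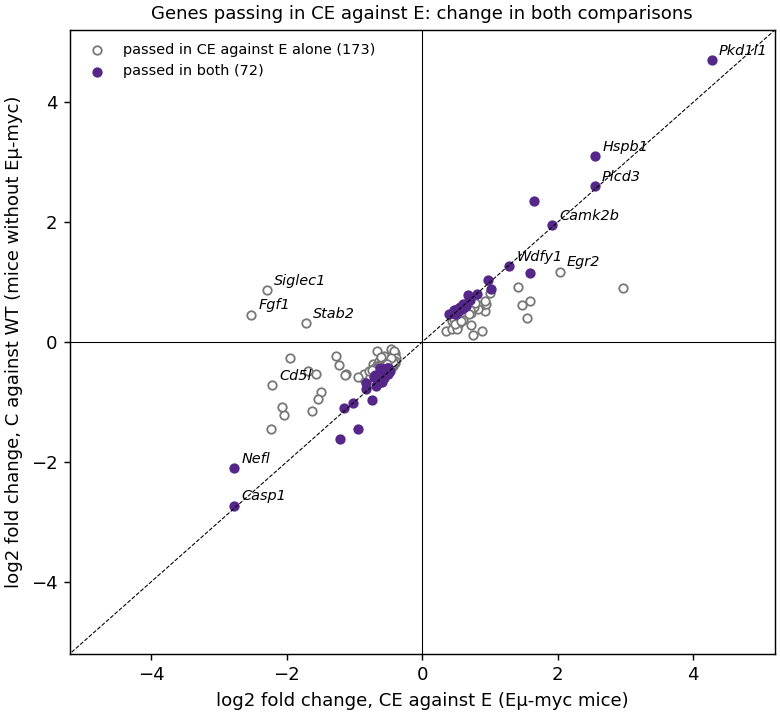
Log2 fold change of the 245 genes that passed in CE against E, in that comparison (horizontal axis) and in C against WT (vertical axis), with the line of equal change dashed. Filled points mark the 72 genes that passed in both comparisons. Siglec1, Fgf1 and Stab2 are the 3 genes whose signs differ.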

How the data were processed

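The deposited table holds raw counts per gene, whole numbers with no normalization by the authors found in them, for all 12 libraries (24529611 to 31100277 counts in the 6 compared). STAR 2.5.3 and mm10 come from the submitters' processing notes. The sources used here do not give the read counter, annotation or strandedness. RefSeq symbols and positions matched 25275 of 27179 gene numbers.

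All 12 libraries were fitted together in edgeR 4.0.16 (R 4.3.3) with TMM factors, filterByExpr by group, group means and robust two-sided quasi-likelihood tests. P-values were adjusted by Benjamini-Hochberg over 14473 genes, and a gene passed under 0.05. Autosomal genes (chromosomes 1 to 19) are reported. The code was tested on simulated data. Alternatives used DESeq2 1.42.0, limma 3.58.1 voom, other factors, filters, groups and covariates, or left out each library. Fits without robust estimation, without length and GC trends (longest GENCODE transcript) or without C1 and C3 were added after the data were seen. Whether mice came from separate litters is not stated, so p-values measure the spread between these mice.

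The comparison, its members and the 29 gene lists were chosen with earlier results of these data known. Named genes are Casp1, Casp4 and Myc, the 12 largest passing changes in each direction at an average log2 CPM of at least 1 with a named symbol and separate groups, up to 3 passing members of each list by p or else 2 as values, and passing genes within 10 Mb of Casp1. Genes of the immediate early, macrophage, stem cell, pathway and long-transcript descriptions that fall outside this rule were named after their values were seen.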

Additional observations from a re-analysis of the deposited data

Results flagged for a closer look

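Outside the autosomes, 11 of the genes tested passed in CE against E, a signal in data that the comparison above does not use. Of these, 9 lie on chromosome X, and the other 2 have gene numbers with no match in the annotation. Among the X-linked genes, Pbdc1 (log2 -0.78, edgeR adjusted p = 0.00891), Pin4 (-0.97), Cox7b (-0.57), Eif2s3x (-0.55) and Eif1ax (-0.48) fell and Plxna3 (0.67) rose. Y-linked transcripts were present in CE1 and CE2 and nearly absent from CE3 and the E libraries, and their part in these X-linked differences was not tested.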

How the results depend on the processing

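The 245 calls of CE against E became 763 with no filter on low counts, 1117 with DESeq2, 1364 with limma voom, 911 with only the groups compared, 3 with the Y-linked covariate, 38 with length and GC trends removed and 6 without C1 and C3, and ranged from 3 to 22 when 1 library was left out. The share of calls that were higher was 26.5% as reported and 42.3%, 41.0%, 44.1% and 46.0% under the first 4 of these. The 246 calls of C against WT became 1248, 1144, 1716, 16, 1, 21 and 3 in the same order, 83 without robust estimation, and 5 to 2204 with 1 library left out (867 without WT3 and 2204 without WT4). In CE against E, 229, 298, 282 and 213 genes passed with RLE factors, the stricter filter, autosomal genes from the start and no robust estimation. The test of the difference gave 0 calls under every alternative run.

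Replicate numbers are shared between CE and E, and the labels do not say whether they pair the mice. Deviations of same-numbered libraries correlated at -0.06, 0.23 and -0.12, and those of differently numbered libraries at -0.31 to 0.30. With so few libraries these values cannot decide whether the numbers mark pairs. With a replicate block and only the CE and E libraries, 948 genes passed in CE against E (47.2% higher). The same libraries without the block gave 911. With a block over all 12 libraries, 2021 genes passed in C against WT, where C is numbered 1 to 3 and WT 2 to 4.

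Casp1 and Camk2b passed in all 18 alternatives of CE against E and Plcd3 in 17. Over the named genes, 906 values kept direction and call, 275 kept direction but no longer passed, 73 came to pass, and 1 reversed: Trrap, log2 -0.0686 with length and GC trends removed. Causes were not tested. Depth limits genes near 1 CPM, and 3 mice per group limit precision.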

Other observations

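Some gene families were looked at after their values were seen, and are given as counts with no test. Over all autosomal genes tested, 1.32% fell. Of 11 core spliceosomal Snrp genes tested, 5 fell and none rose, with a median log2 fold change of -0.40 in CE against E and -0.37 in C against WT. Snrpe was at 134.8, 112.1 and 116.9 CPM in CE and 224.0, 162.0 and 173.0 CPM in E. Of 78 mitochondrial ribosomal protein genes, 5 fell and none rose, with medians of -0.20 and -0.35 in the same order. Of 38 proteasome subunit genes, 4 fell and none rose, with medians of -0.19 and -0.28. Psma4 was at 114.2, 103.7 and 103.0 CPM in CE and 161.0, 139.8 and 146.1 CPM in E. Of 20 centromere Cenp genes, 3 fell and none rose, with medians of -0.28 and -0.37 and a median transcript length of 3101 bases. Of 14 small nucleolar RNA host genes, 3 fell (Snhg20, Snhg6 and Snhg4) and none rose, with medians of -0.32 and -0.53. None of 76 cytosolic ribosomal protein genes passed in edgeR, although 72 had a negative value. Their median was -0.18 in CE against E and -0.38 in C against WT. The median transcript length was 1690 bases for the Snrp genes, 1895 for the proteasome and 1106 for the cytosolic ribosomal proteins, all under the 3353 bases of autosomal genes. With length and GC trends removed, none of the fallen Snrp, mitochondrial ribosomal or proteasome genes passed. Snrpe went from a log2 fold change of -0.62 to -0.08, Snrpd1 from -0.61 to -0.15, Psma4 from -0.48 to -0.13 and Mrps18c from -0.56 to -0.13, whereas Snrpd3 went from -0.52 to -0.44 and Mrpl13 from -0.50 to -0.45. Of the small nucleolar RNA host genes, Snhg20 had a log2 fold change of -1.16 in that fit without passing. Snhg6 and Snhg4 have no transcript length here, so the fit removed no trend from them and cannot show whether their change depends on length. Only 6 of the 14 host genes have a length.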
